A study of Mus musculus with 5 samples.

Results

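The genes that pull chromosomes apart were followed in the lungs of 5 mice with allergic airway inflammation. They are the kinesin motors, the centromere and kinetochore proteins (Cenp genes), the spindle checkpoint (Bub and Mad2 genes), the Aurora, Polo-like and Nek kinases, condensin and cohesin (Smc and Ncap genes), the anaphase-promoting complex (Anapc genes), and Birc5, Hmmr and Mki67. Members were all genes whose symbols in the platform annotation belong to these families, taken from probes that name only 1 gene. The annotation held 88 such genes on 98 probes, of 13410 genes on 17280 probes in all. Of these, 68 could be tested, as could 9715 genes in all, the condition being a probe measured in 4 or 5 mice. The rule that picks them uses symbols and no measured value.

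Each array compared 1 mouse of the inbred strain C3H, sensitised to ovalbumin (an egg-white protein used as a model allergen) and challenged with it, with a pool of control C3H lungs. RNA was amplified on both sides. The sources used here do not give the number, age and sex of the animals in the pool, the dyes or the days of treatment. The pool is the same on every array and stands as 1 control sample, so variation between control animals has no part in the errors below. Those errors measure how the ova arrays differ from each other. With 1 array per mouse, they hold differences between mice and noise of the arrays together.

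In a dividing cell, microtubules form the spindle, kinetochores on the centromeres hold the chromosomes to it, and the checkpoint delays separation until every kinetochore is attached. The anaphase-promoting complex then marks cohesion factors and cyclins for destruction. Mitotic kinesins slide, bundle or shorten spindle microtubules, whereas transport kinesins carry vesicles, organelles and ciliary cargo along microtubules in cells that need not divide. Resting lung holds few dividing cells, and many mitotic genes are transcribed mainly from late S phase to mitosis.

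Values are log ratios on the deposited scale, taken as log2, after each array was centred on its median; the log base is not stated. The numerator is not stated either, so a gene is placed below or above 0 and no direction of change is claimed. For orientation, 5 genes that background knowledge ties to allergic airway inflammation were below 0 in all 5 mice. Retnla, a secreted macrophage and epithelial protein gene, had a mean of -4.79 and the goblet cell gene Clca1 a mean of -4.33. Muc5ac, a mucin gene, had -3.00, the arginase gene Arg1 -3.48 and the eotaxin gene Ccl11 -0.94. Mouse 1 had the narrowest array, with an SD across probes of 0.20, against 0.32 to 0.38 in the others.

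Members lay mostly on the side of Retnla and Clca1. In limma's moderated test against 0, with Benjamini-Hochberg adjustment over all 9715 genes, 27 of 68 members (39.7%) passed an adjusted p of 0.05 below 0, where 15.2% of all genes did. Above 0 there were 4 members (5.88%), against 12.3% of all genes, and 37 did not pass. The median of the members' mean ratios was -0.11, against 0.00 for all genes. Of the 27 genes below 0, 24 had values below 0 in every mouse, 13 had a mean under -0.5 and 7 a mean under -1, levels that 408 and 123 of all tested genes reached. Without mouse 3 or mouse 5, 22 members were below 0 and 2 above 0 (9.27% and 9.28% of all genes below 0, 7.18% and 6.71% above 0). In whole lung, a difference in the number of cells of a kind and a difference in RNA per cell cannot be told apart.

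**Figure D1:**
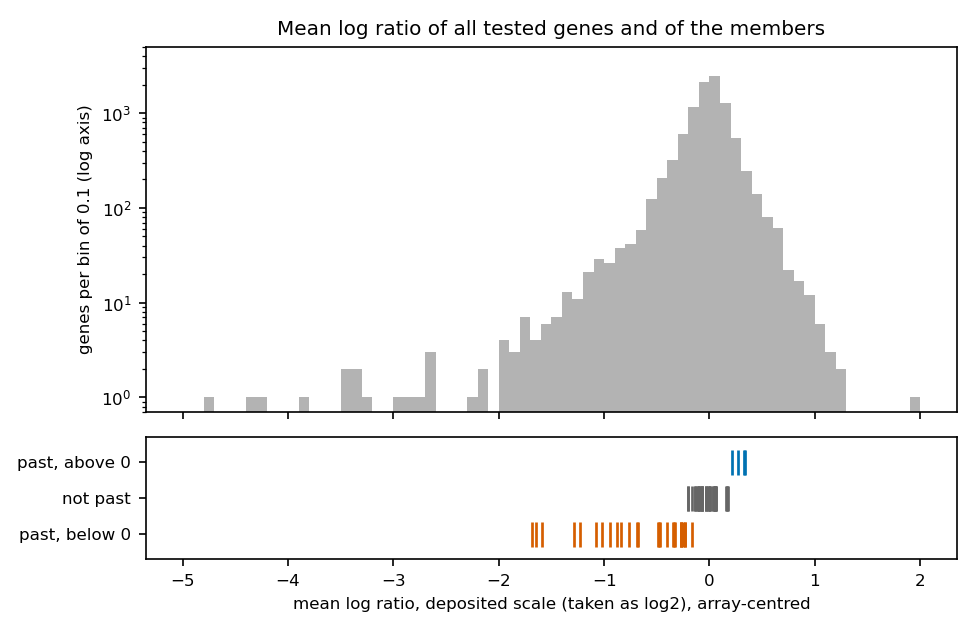
The upper panel counts all 9715 tested genes by mean log ratio (bins of 0.1, log axis for the counts), and the lower panel marks each of the 68 members, 27 past the threshold below 0, 4 above 0 and 37 not past. The members below 0 reach to -1.68, whereas those above 0 end at 0.34.

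Not every member could be read. No value was given on any array for 9 genes: the survivin gene Birc5, the checkpoint genes Bub1 and Bub3, Cenpk, Kif1c, Kif21a, Kif3a, Nek4 and Smc5. Another 11 had values on 1 to 3 arrays and were not tested: Anapc4, Anapc11, Aurkc, Cenpa, Cenpb, Cenpo, Cenpt, Kif2b, Kif5a, Kif18a and Kif27. Cenpa, the centromeric histone variant, had a single value of -0.43 in mouse 1. The share tested, 77.3%, compared with 72.4% of all genes on the array.

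Mitotic kinesins held the lowest members, and their values, from 1 probe per gene, divided into separate sets. Of 8 tested, 4 passed below 0 (50%, against 15.2% of all genes) and 0 above 0 (against 12.3%). At an unadjusted limma p of 0.05, 5 lay below 0, with Kif18b added, and 0 above 0. The 4 that did not pass had means between -0.14 and 0.05. Kif23, which with Racgap1 builds the central spindle on which cells divide, gave -1.06, -1.82, -1.96, -1.54 and -2.01 in mice 1 to 5. Its mean was -1.68 ± 0.39 (SD, n = 5; 3.2-fold if the base is 2; limma adjusted p = 0.000439), the 34th lowest of all genes. Kif22, a motor that sits on chromosome arms, gave -0.90, -1.84, -1.91, -1.65 and -1.96, with a mean of -1.65 ± 0.44 (adjusted p = 0.000613). In both genes mouse 1 stood nearest to 0 and all mice lay well below it.

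Kif20a, which brings the chromosomal passenger complex to the central spindle, gave -1.15, -1.82, -1.84, -1.62 and -1.51. Its mean was -1.59 ± 0.28 (adjusted p = 0.000172). Kif4, a chromosome-bound motor that works with condensin and Prc1, gave -0.14 in mouse 1 and -1.08, -1.12, -0.88 and -1.16 in mice 2 to 5. Its mean was -0.88 ± 0.42 (adjusted p = 0.00412), so that mouse 1 stood apart from the rest.

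The 4 mitotic kinesins that did not pass had values on both sides of 0. Kif11, the motor that drives spindle poles apart, gave -0.19, -0.14, -0.19, 0.12 and 0.04 (mean -0.07 ± 0.15, adjusted p = 0.423). Kif15, which can take over that work, gave 0.09, 0.00, 0.25 and -0.17 in mice 1, 2, 4 and 5 and has no value in mouse 3 (mean 0.05, adjusted p = 0.694). These genes thus lay within the spread of the mice around 0. Kif2c, a microtubule-shortening motor of the kinetochore, gave 0.00, -0.24, 0.26, 0.06 and 0.05 (mean 0.03 ± 0.18, adjusted p = 0.812). Kif18b, another microtubule-shortening motor, gave -0.08, -0.20, -0.30, -0.16 and 0.03 (mean -0.14 ± 0.13, adjusted p = 0.0972). No value of these 4 genes in any mouse was as low as the mean of Kif4. Each of the 4 was read by 1 probe. In the 7 members with 2 tested probes, the probe means differed by 0.23 to 1.10. Whether other probes would place these 4 kinesins elsewhere was not tested.

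Transport kinesins stayed near 0 or above it. Of 11 tested, limma called 0 below 0, against 15.2% of all genes (0 at an unadjusted p of 0.05). It called 2 above 0 (18.2%, against 12.3% of all genes), and the means ran from -0.07 to 0.27. Kif3b, a subunit of the motor of intraflagellar transport, gave 0.18, 0.29, 0.37, 0.13 and 0.39 (mean 0.27 ± 0.11, limma adjusted p = 0.0091). Kifc2, a minus-end-directed motor, gave 0.03, 0.04, 0.37, 0.33 and 0.27 (mean 0.21 ± 0.16, adjusted p = 0.0482), and its call was lost when mouse 3, 4 or 5 was left out (adjusted p = 0.151, 0.125 and 0.14). Kif3c gave 0.14, 0.32, 0.38, -0.01 and -0.02 and did not pass (mean 0.16 ± 0.18, adjusted p = 0.127). The widely expressed conventional kinesin gene Kif5b had a mean of -0.07 and did not pass. Apart from Kif3b and Kifc2, the other transport kinesins, among them Kif1b (0.03), Kif13b (0.05) and Kif5c (0.05), did not pass either.

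Set against each other, the mean over mitotic kinesins was lower than the mean over transport kinesins in 5 of 5 mice. The mitotic mean was -0.43, -0.89, -1.01, -0.68 and -0.83 in mice 1 to 5, and the transport mean 0.05, 0.08, 0.06, 0.09 and 0.10. The difference was -0.48, -0.98, -1.07, -0.76 and -0.93, with a mean of -0.84 ± 0.23 (SD, n = 5). It was -0.67 with medians over genes in place of means. No test was made of this difference. It rests on Kif20a, Kif22, Kif23 and Kif4, with means of -0.88 or lower, since the other mitotic kinesins had means from -0.14 to 0.05 and the transport kinesins from -0.07 to 0.27. Some genes lack a value in 1 mouse, so the means do not hold exactly the same genes on every array.

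**Figure D2:**
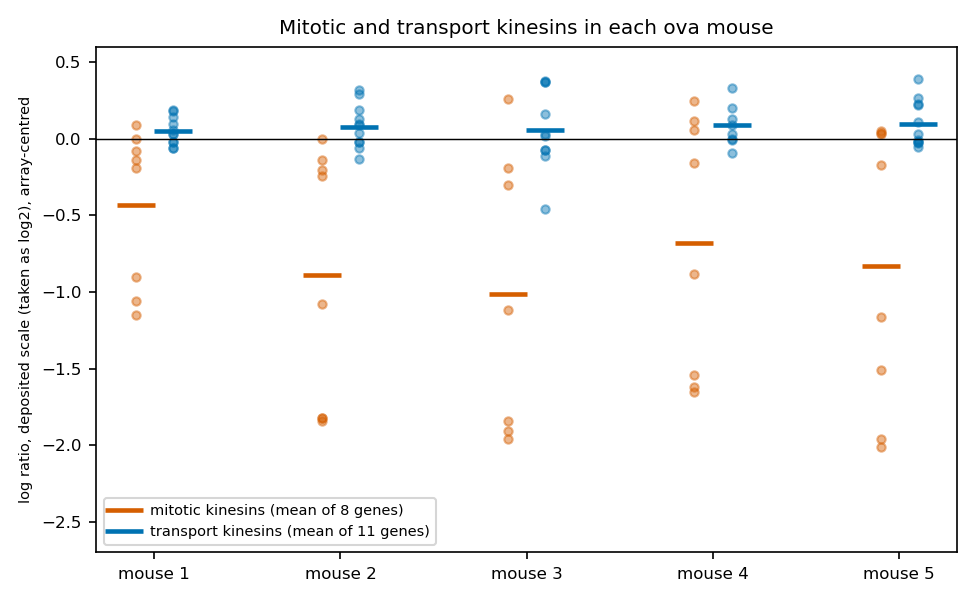
Each point is 1 kinesin in 1 ova mouse and each bar the mean over 8 mitotic or 11 transport kinesins; the vertical axis is the centred log ratio on the deposited scale. The mitotic mean lies between -0.43 and -1.01 and the transport mean between 0.05 and 0.10.

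Kinesins outside both groups had small ratios. Kif12 gave 0.02, -0.41, -0.29, -0.13 and -0.32 (mean -0.23 ± 0.17, adjusted p = 0.0409) and Kif9, a motor of motile cilia, -0.17, -0.28, -0.07, -0.05 and -0.29 (mean -0.17 ± 0.11, adjusted p = 0.0461). Kif12 lost its call without mouse 2, 3, 4 or 5 (adjusted p from 0.0612 to 0.131), and Kif9 without mouse 1, 2, 3 or 5 (adjusted p from 0.0686 to 0.147). Kif24, a kinesin of the centriole, lay below 0 in all mice at -0.06, -0.11, -0.08, -0.10 and -0.05 and did not pass (adjusted p = 0.182). It averages probes at -0.19 and 0.05, and the probe at 0.05 is blank in mouse 1. The probe at -0.19 gave -0.06, -0.22, -0.14, -0.25 and -0.27. Markers of multiciliated cells lay on both sides, with Tppp3 at 0.61 and Tekt1 at -0.21 past the threshold and Foxj1 (-0.07) and Ccdc39 (0.00) not past; their part in the ratios of ciliary kinesins was not tested.

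Because several mitotic members had low ratios together, the members' promoters were searched for the element that such genes are known to share. This is the cell cycle genes homology region (CHR), read here as TTTGAA, to which complexes that time late cell cycle genes bind, often beside a CCAAT box, the NF-Y site. The window ran from 250 bases before to 50 bases after the annotated start, from RefSeq on GRCm38.p6, with both strands read, and 62 of the 68 tested members had a window. The following stretches run from 170 bases before the start to 30 after it. Kif22, Kif23, Kif4, Hmmr and Ncapg were picked as members below 0 that hold TTTGAA, and Kif3b as a transport kinesin without it. Capitals mark TTTGAA and CCAAT, or TTCAAA and ATTGG where they read on the other strand.
Kif22, chr7:127042391-127042590, minus strand: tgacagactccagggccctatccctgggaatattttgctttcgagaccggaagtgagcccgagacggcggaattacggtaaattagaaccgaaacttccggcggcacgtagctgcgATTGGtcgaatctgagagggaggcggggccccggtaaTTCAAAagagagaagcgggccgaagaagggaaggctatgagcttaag
Kif23, chr9:61946770-61946969, minus strand: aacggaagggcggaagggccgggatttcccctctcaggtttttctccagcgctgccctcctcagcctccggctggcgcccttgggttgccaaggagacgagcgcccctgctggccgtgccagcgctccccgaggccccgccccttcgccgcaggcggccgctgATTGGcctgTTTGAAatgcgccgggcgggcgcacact
Kif4, chrX:100625895-100626094, plus strand: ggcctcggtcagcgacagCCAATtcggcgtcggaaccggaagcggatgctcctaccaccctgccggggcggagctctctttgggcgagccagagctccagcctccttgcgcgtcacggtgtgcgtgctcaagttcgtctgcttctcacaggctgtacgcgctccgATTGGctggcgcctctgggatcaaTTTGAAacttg
Hmmr, chr11:40733408-40733607, minus strand: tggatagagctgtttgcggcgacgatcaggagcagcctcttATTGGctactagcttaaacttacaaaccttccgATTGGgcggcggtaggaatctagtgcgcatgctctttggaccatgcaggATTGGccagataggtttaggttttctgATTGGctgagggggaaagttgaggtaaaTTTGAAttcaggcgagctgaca
Ncapg, chr5:45669755-45669954, plus strand: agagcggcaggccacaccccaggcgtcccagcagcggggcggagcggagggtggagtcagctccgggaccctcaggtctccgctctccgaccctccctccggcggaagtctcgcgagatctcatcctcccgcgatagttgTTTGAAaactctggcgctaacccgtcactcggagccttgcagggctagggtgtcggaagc
Kif3b, chr2:153291246-153291445, plus strand: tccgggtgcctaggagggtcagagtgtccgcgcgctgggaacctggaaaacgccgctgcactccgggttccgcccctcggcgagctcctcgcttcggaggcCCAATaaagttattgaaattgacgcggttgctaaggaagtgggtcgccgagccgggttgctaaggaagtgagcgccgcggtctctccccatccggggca

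Counting the first transcribed base as 1 and the base before it as -1, the marked CHR letters began at -17 in Kif22, 3 in Kif23, 20 in Kif4, 9 in Hmmr and -30 in Ncapg. A CCAAT box stood upstream of them at -54 in Kif22, -7 in Kif23, -5 in Kif4 and -20 in Hmmr, on the other strand in each. TTTGAA was found in 11 of 25 members below 0 (44%), in 14 of 34 members not past the threshold (41.2%) and in 15.1% of the 7671 tested genes with a window. TTTGAA together with CCAAT was found in 11 of 25 members below 0 (44%), 5 of 34 not past (14.7%) and 6.17% of tested genes. TTTGAA within 50 bases of the start on either side was found in 10 of 25 (40%), 7 of 34 (20.6%) and 4.16%. No test was made of these shares.

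All 7 mitotic kinesins with a window held TTTGAA, whereas 1 of 7 transport kinesins (Kif1a) did. The 7 were the 4 that did not pass (Kif11, Kif15, Kif18b and Kif2c) as well as Kif22, Kif23 and Kif4. Taken without CCAAT, the letters were thus as common in the mitotic kinesins that did not pass as in those that did. This leaves out Kif20a, which passed and has no window. TTTGAA together with CCAAT was in Kif22, Kif23, Kif4, Kif11 and Kif18b, and not in Kif15 or Kif2c. Within 50 bases of the start, TTTGAA was in all of these except Kif2c. The related form TTTAAA was in 5 of 25 members below 0 (20%) and 11.9% of tested genes. Of the E2F forms, TTTCGCGC was in 0 of 25 and TTTGGCGC in 1 of 25 (4%), against 0.691% and 0.939% of tested genes. CCAAT alone was in 16 of 25 (64%) and 42.8%. A match is a description of the letters, not of binding.

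Of 12 tested centromere and kinetochore genes, limma called 4 below 0 (33.3%, against 15.2% of all genes). It called 0 above 0, against 12.3% of all genes (2 at an unadjusted p of 0.05), and the median was -0.10. Cenpf, a large protein of the outer kinetochore, gave -0.56, -1.21, -0.40, -0.36 and -0.87 (mean -0.68 ± 0.36, limma adjusted p = 0.0061). Cenpq, of the inner kinetochore, gave 0.00, -0.46, -0.49, -0.63 and -0.76 (mean -0.47 ± 0.29, adjusted p = 0.0119). Cenpp, of the same inner network, gave -0.33, -0.33, -0.10, -0.19 and -0.43 (mean -0.27 ± 0.13, adjusted p = 0.0113). Its value in mouse 1 comes from 1 probe and in mice 2 to 5 from 2, so mouse 1 is not read on the same probes. The probe with values in all mice gave -0.33, -0.71, -0.23, -0.40 and -0.75 (SD 0.23). Cenpf was the only tested gene of the group with a mean under -0.5.

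Cenpc1, which anchors the kinetochore to centromeric chromatin, had a mean of -0.27 ± 0.19 (adjusted p = 0.0255), with -0.01 in mouse 1. This call was lost whenever mouse 2, 3, 4 or 5 was left out (adjusted p from 0.0534 to 0.0921). Other inner kinetochore genes stood near 0, among them Cenph (-0.10), Cenpn (-0.11), Cenpu (-0.03) and Cenpw (-0.01). The highest were Cenps (0.17, adjusted p = 0.0593) and Cenpm (0.17, n = 4, adjusted p = 0.0934).

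Of 4 tested genes with checkpoint symbols, the core members Bub1b and Mad2l1 passed below 0 (50%, against 15.2% of all genes). The related Mad2l2 and Mad2l1bp did not pass. Bub1b, whose protein BubR1 holds back the anaphase-promoting complex, gave -0.58, -1.48, -1.36, -1.19 and -1.52 (mean -1.23 ± 0.38, adjusted p = 0.000934). Mad2l1, the other core inhibitor, gave -0.32 in mouse 1 and values from -0.79 to -1.27 in the others (mean -0.84 ± 0.35, adjusted p = 0.00252). Mouse 1 was nearest to 0 in both, at less than 0.5 of the mean of the other mice (0.42 and 0.32). Mad2l2 is named for its likeness to Mad2l1 and is best known as a subunit of a translesion DNA polymerase. It gave 0.00, 0.09, 0.03, 0.76 and 0.00 (mean 0.18 ± 0.33, adjusted p = 0.281), and only mouse 4 was away from 0. Mad2l1bp, which takes Mad2 out of the checkpoint complex, had a mean of 0.01 (adjusted p = 0.895).

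All 5 tested mitotic kinases passed below 0, as did 15.2% of all genes, and their median was -1.02. Aurka, the Aurora kinase of the spindle poles, gave -0.84, -1.45, -1.19, -1.33 and -1.65 (mean -1.29 ± 0.30, adjusted p = 0.000529). Nek2, which separates centrosomes, gave -0.45, -1.39, -0.96, -0.98 and -1.31 (mean -1.02 ± 0.37, adjusted p = 0.00161). Plk4, which licenses centriole duplication, gave -0.66, -1.27, -0.53, -0.82 and -0.53 (mean -0.76 ± 0.31, adjusted p = 0.00246). These values were below 0 in every mouse. Aurkb, the kinase of the passenger complex, varied most, from -0.46 in mouse 1 to -1.63 in mouse 2 (mean -1.08 ± 0.52, adjusted p = 0.0038). Plk1, the main Polo-like kinase of mitosis, had a smaller ratio of -0.27 ± 0.12 (adjusted p = 0.0103).

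Relatives of these kinases with other roles lay on both sides. Nek7, best known in immune cells as a partner of the NLRP3 inflammasome as well as in spindle assembly, gave -0.46, -0.42, -0.97, -0.98 and -0.60 (mean -0.69 ± 0.28, adjusted p = 0.00251). Its close relative Nek6 gave -0.12, -0.41, -0.45, -0.53 and -0.50 (mean -0.40 ± 0.16, adjusted p = 0.00439). Plk2, a stress-induced Polo-like kinase, was above 0 in all mice at 0.35, 0.41, 0.17, 0.28 and 0.41 (mean 0.33 ± 0.10, adjusted p = 0.00403). It was among the 3 members past the threshold above 0 in every mouse, with Kif3b and Kifc2. Nek3 (0.01) and Nek8 (-0.11, n = 4), a ciliary kinase, did not pass.

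**Figure D3:**
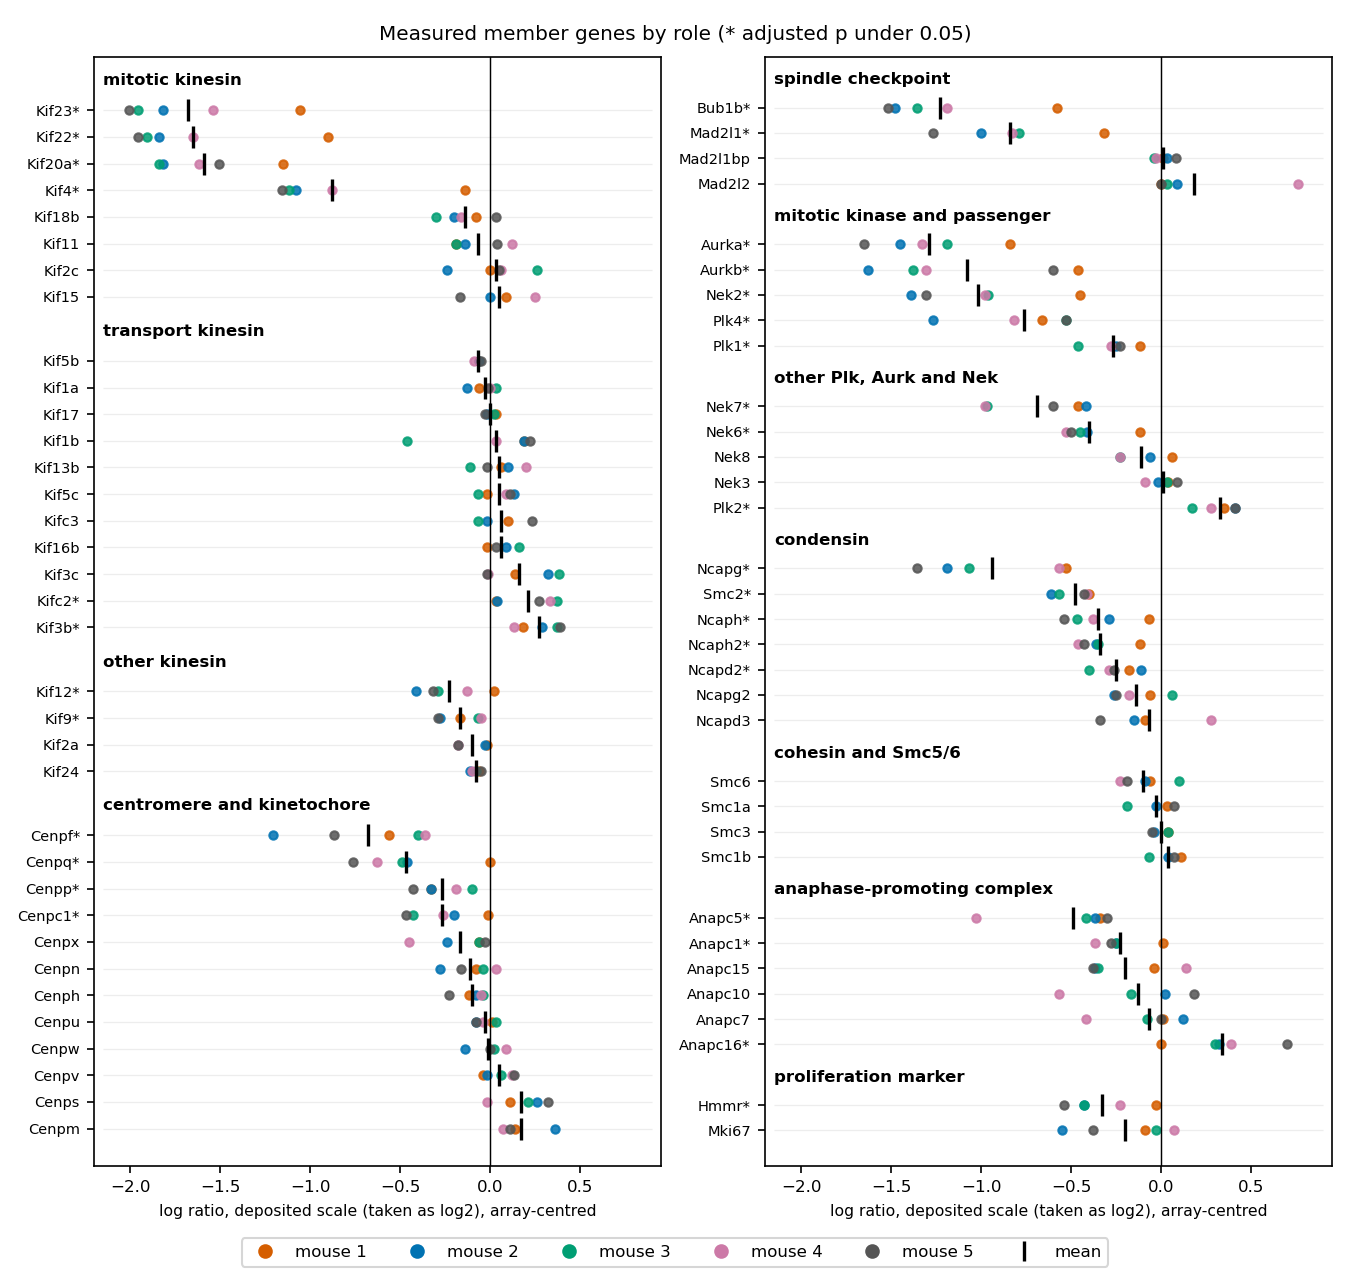
Every tested member is a row, grouped by role, with 1 point per ova mouse, a bar at the mean and a star where the limma adjusted p was under 0.05; the horizontal axis is the centred log ratio on the deposited scale. Kif23, Kif22 and Kif20a lie furthest from 0, with mouse 1 nearest to 0, while the transport kinesins and the cohesin group cluster at 0.

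Condensin, the complex that compacts mitotic chromosomes, had 5 of 7 tested genes past the threshold below 0 (71.4%, against 15.2% of all genes). Above 0 it had 0, against 12.3% of all genes (0 at an unadjusted limma p of 0.05). The shared subunit gene Smc2 gave -0.40, -0.61, -0.57, -0.41 and -0.43 (mean -0.48 ± 0.10, adjusted p = 0.000934). The 3 subunits of condensin I, which binds chromosomes after the nuclear envelope opens, all passed: Ncapg at -0.94 ± 0.38, Ncaph at -0.35 ± 0.18 and Ncapd2 at -0.25 ± 0.11. Ncapg gave -0.53, -1.19, -1.07, -0.57 and -1.36 (adjusted p = 0.00217).

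Of the condensin II subunits, which are nuclear throughout the cycle, Ncapd3 (-0.07, n = 4) and Ncapg2 (-0.14) did not pass. Ncaph2 passed with -0.12, -0.36, -0.35, -0.46 and -0.43 (mean -0.34 ± 0.13, adjusted p = 0.00485). That value averages 2 probes, 1 at -0.60 and the other at -0.09. The probe at -0.60 lies 24 identifiers from the probe of Slc26a4 (-3.31), and without it Ncaph2 had -0.09 and did not pass (adjusted p = 0.209). Across the array, mean ratios of probes of different genes correlated at identifier distances of 6, 18 and 24 (Pearson's r = 0.155, 0.108 and 0.107 over at least 8979 pairs, which share the arrays and the pool). At the other distances up to 30, r was between -0.011 and 0.023. Aurka lies 24 identifiers from Gmnn (-1.05) and Cenpc1 18 from Melk (-1.80), each with a single probe. The part of such neighbours in the ratios of Aurka and Cenpc1 was not tested.

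Cohesin and its relatives, which hold or repair sister chromatids, had 0 of 4 tested genes past limma's threshold in either direction, against 27.5% of all genes. At an unadjusted limma p of 0.05 it was also 0. Smc6, of the repair complex, gave -0.06, -0.09, 0.10, -0.23 and -0.19 (mean -0.10, adjusted p = 0.246). It averages probes at 0.04 and -0.24, and the probe at 0.04 lies 6 identifiers from that of Cd209e (-1.10); without that probe Smc6 had -0.24 (adjusted p = 0.0854), and with 1 probe a gene 0.04 (adjusted p = 0.485). Means of the others were -0.03 (Smc1a), 0.00 (Smc3) and 0.04 (the meiotic Smc1b), each from 4 mice. Smc1b gave 0.11, 0.04, -0.07 and 0.07 in mice 1, 2, 3 and 5 (adjusted p = 0.644), and Smc1a 0.03, -0.03, -0.19 and 0.07 in the same mice (adjusted p = 0.75).

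The anaphase-promoting complex, whose subunits also act outside mitosis, gave 2 of 6 tested Anapc genes below 0 (33.3%, against 15.2% of all genes). It gave 1 above 0 (16.7%, near the 12.3% of all genes). Its subunit genes Cdc16 (-0.11, not past) and Cdc26 (0.15, past above 0) were counted with mitotic entry and exit. Both are named here after the values were seen, and Cdc26 lost its call without any 1 mouse. Anapc5 gave -0.34, -0.37, -0.42, -1.03 and -0.30 (mean -0.49 ± 0.30, adjusted p = 0.0114), with mouse 4 apart. Anapc1, the largest scaffold subunit, gave 0.01, -0.25, -0.25, -0.37 and -0.28 (mean -0.23 ± 0.14, adjusted p = 0.0261). Anapc16 gave 0.00, 0.32, 0.30, 0.39 and 0.70 (mean 0.34 ± 0.25, adjusted p = 0.0257). The calls of Anapc1 and Anapc16 were each lost when mouse 2, 3, 4 or 5 was left out, with adjusted p from 0.073 to 0.0878 and from 0.0653 to 0.0718.

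Of the 2 proliferation markers with values, 1 passed below 0, where 15.2% of all genes did. Mki67, which encodes the Ki-67 antigen used to count cycling cells, gave -0.09, -0.55, -0.03, 0.07 and -0.38 (mean -0.20 ± 0.26, adjusted p = 0.149). Hmmr, a hyaluronan receptor that also works at the spindle, gave -0.03, -0.43, -0.43, -0.23 and -0.54 as the average of 2 probes (mean -0.33 ± 0.20, adjusted p = 0.0156). This call was lost without mouse 2, 3 or 5 (adjusted p from 0.0534 to 0.0623).

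The 2 Hmmr probes went opposite ways. The first, annotated with a RefSeq transcript, gave -0.24, -1.10, -0.90, -0.61 and -1.29 (mean -0.83, adjusted p = 0.00499 over probes). The second, annotated with a cDNA record, gave 0.18, 0.23, 0.03, 0.16 and 0.21 (mean 0.16, adjusted p = 0.0401 over probes), above 0 in every mouse. For Ncapg the probes had means of -1.49 and -0.40, both past the threshold (adjusted p = 0.00181 and 0.0123 over probes). Cenpp had -0.48 on 1 probe (adjusted p = 0.00615) and 0.00 on the other, so that its gene value rests on a single probe. In all, 7 members had 2 tested probes, whose means differed by 0.23 (Kif24) to 1.10 (Ncapg). Whether such probes read different transcripts was not tested.

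**Figure D4:**
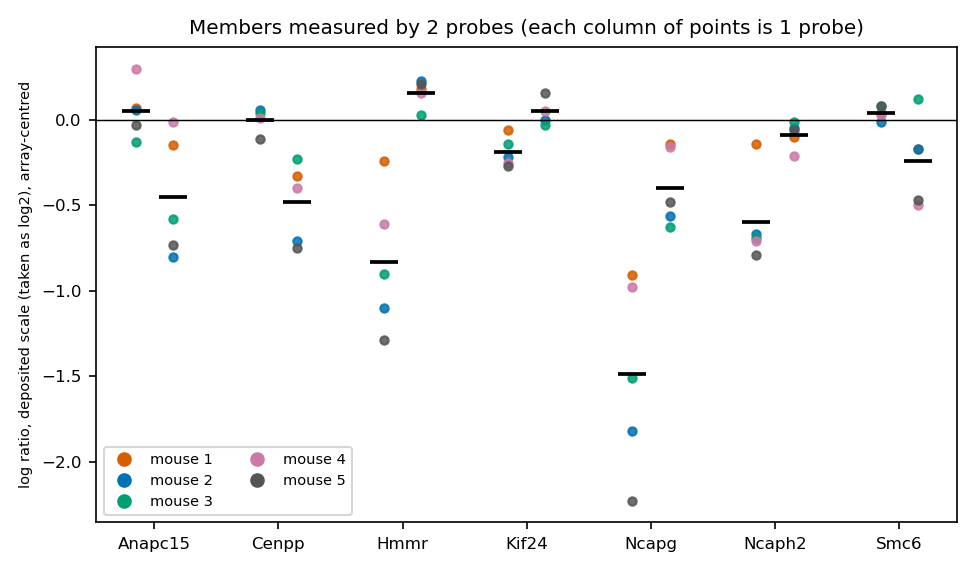
For each of the 7 members with 2 tested probes, both probes are plotted side by side, with 1 point per ova mouse and a bar at the probe's mean, on the centred log ratio of the deposited scale. The Hmmr probes lie at -0.83 and 0.16 and the Ncapg probes at -1.49 and -0.40.

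Other tested mitotic genes on lists of the pathway lay mostly on the same side. The lists, with those of cohesion and of the partners of transport motors, held 116 genes, of which 55 were tested. Shares below are of tested genes only. Of 14 tested genes of the kinetochore and checkpoint, 10 passed below 0 (71.4%, against 15.2% of all genes) and 1 above 0 (7.14%, against 12.3% of all genes; Ska1, 0.18). All 4 genes of the NDC80 complex, which grips the microtubule, passed below 0: Spc25 (-1.69 ± 0.52), Nuf2 (-1.59 ± 0.69), Ndc80 (-0.85 ± 0.49) and Spc24 (-0.20 ± 0.06, n = 4). This complex and Ska1 were picked after the values were seen. Ska1 lost its call without mouse 2, 3, 4 or 5 (adjusted p from 0.084 to 0.113), and Spc24 without mouse 1, 3, 4 or 5 (adjusted p from 0.0548 to 0.117). Incenp, the scaffold of the Aurora B passenger complex, had -0.42, Zwilch -0.47 and the checkpoint kinase gene Ttk -0.42. Among genes of mitotic entry and exit, 8 of 15 passed below 0 (53.3%, against 15.2% of all genes) and 1 above 0 (6.67%, against 12.3%). The mitotic kinase gene Cdk1 was the lowest at -2.14 ± 0.51. Cyclin B2, Ccnb2, had -1.32 ± 0.33, the Cdk1 subunit gene Cks1b -1.25, the ubiquitin-conjugating partner of the anaphase-promoting complex, Ube2c, -1.08 and its coactivator Fzr1 -0.53.

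Spindle and cytokinesis genes gave 7 of 16 below 0 (43.8%, against 15.2% of all genes) and 1 above 0 (6.25%, against 12.3%; Tacc2, 0.35, n = 4, chosen after its value was seen; its call was lost without mouse 2, 3 or 5, with adjusted p from 0.0706 to 0.0942). Prc1, the bundler of the central spindle on which Kif4 works, had -0.60 ± 0.24 and Cep55, of the final cut between daughter cells, -0.37. The import factor gene Kpna2 had -0.66, Rcc1 -0.24 and Cdca3 -0.40 (n = 4). Of 4 tested cohesion genes outside the Smc family, the cohesin ring subunit gene Rad21 passed at -0.40 ± 0.08 and the cohesin loader gene Mau2 at 0.32 ± 0.10, while Stag3 (-0.16) and Esco1 (0.11) did not. Rad21 thus lay apart from Smc1a and Smc3 of the same ring; this difference was not tested.

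Light chains and cargo partners of the transport motors had means from -0.03 to 0.24. Of 6 tested, limma called 0 below 0, against 15.2% of all genes (0 at an unadjusted p of 0.05). It called 1 above 0 (16.7%, near the 12.3% of all genes). This was Kifap3, the third subunit of the motor that holds Kif3b, with 0.17, 0.14, 0.27, 0.34 and 0.27 (mean 0.24 ± 0.08, adjusted p = 0.00999). The kinesin light chain genes Klc3 (0.21) and Klc1 (-0.02), the dynactin gene Dctn1 (0.19) and the dynein heavy chain gene Dync1h1 (-0.03) did not pass. Kif3b and Kifap3, partners in 1 motor, were therefore both above 0 in 5 of 5 mice, and Kif3a, the third partner, has no value.

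Between mice, the members below 0 were nearest to 0 in mouse 1. Over the 27 members past the threshold below 0, the ratio in mouse 1 was a median of 0.42 of the mean of the other mice, and in mice 2 to 5 it was 1.19, 1.18, 1.01 and 1.32. Mouse 1 was the highest of the 5 in 20 of the 27. All genes past the threshold below 0 with 5 values (1354) had medians of 0.51, 1.06, 1.04, 1.08 and 1.34 in mice 1 to 5. Both sets thus had their smallest share in mouse 1 and their largest in mouse 5, while mouse 4 took a different place in each. With a mean under -0.5 required as well, the median in mouse 1 was 0.50 for 13 members and 0.49 for 376 of all genes. Mouse 1 also had the narrowest array. In mouse 1 the 5 allergy genes stood at 0.90 (Retnla), 0.82 (Clca1), 0.71 (Muc5ac), 0.65 (Arg1) and 0.28 (Ccl11) of the mean of the other mice, on both sides of the members' median.

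Leukocyte markers lay on the members' side. Of 5 tested, 4 passed below 0 (Itgb2 -0.83, Ptprc -0.62, Laptm5 -0.33, Tyrobp -0.24) and Coro1a (-0.05) did not; the list's median in mice 1 to 5 was -0.22, -0.42, -0.24, -0.25 and -0.62. Both tested macrophage markers passed below 0 (Mrc1 -1.23, Cd68 -0.46), as did 2 of 3 B cell markers (Cd79a -0.54, Ms4a1 -0.44; limma adjusted p = 0.0274 and 0.0295). In mouse 2, however, Cd79a had 0.20 and Ms4a1 0.01, whereas both lay below 0 in the other mice. Limma called 0 of 3 T cell markers (0 at an unadjusted p of 0.05; Cd3e -0.15, Cd8a -0.09, Cd3d 0.07). Lung epithelial markers lay above 0 in 3 of 4 (Sftpc 0.67, Scgb1a1 0.70, Ager 0.66, and Sftpa1 at -0.05 not past), as did 1 of 2 endothelial markers (Tek 0.53, and Pecam1 at 0.20 not past). Beside these marker counts, 15.2% of all genes passed below 0 and 12.3% above 0. The part of cell makeup in the members' ratios was not tested, and a ratio gives no level by which a marker could be called present or absent.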

How the data were processed

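Lung RNA of 5 ova mice was measured, each on a 2-colour array against 1 control pool. The deposited table holds 1 signed log ratio per probe and array, taken as log2; the sources used here do not give the scanner, background correction, normalization, dyes, log base or numerator. The largest size, 5.168, exceeds the log10 range of a 16-bit scanner (4.82), and base e was not excluded. Brightness was not available, so no saturation or background could be judged, and the number of arrays limits the precision. Between 11778 and 13320 of 17280 probes had a value on an array.

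Probes were named through the platform annotation (1 symbol for 14722 probes, several for 1, none for 2557); RefSeq changed 0 member symbols. The median was subtracted within each array, probes blank on more than 1 of the 5 arrays were dropped, and probes of a gene were averaged. Each gene was tested against 0 with limma 3.58.1 in R 4.3.3 (lmFit, eBayes, two-sided, Benjamini-Hochberg over 9715 genes, threshold 0.05), a procedure tested on simulated data. The labels number the ova samples from 1 to 5, and each number was taken as a separate animal. Sequences are RefSeq promoters of GRCm38.p6; the combined and near-start motif counts were added after seeing the data.

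The members and lists were chosen with earlier results of these data known. Genes named with values of every mouse are all mitotic kinesins, the 3 transport kinesins of largest mean, Hmmr, Mki67 and the 3 members of smallest p in each other role; of each pathway list, the 5 of smallest p. Alternatives changed the centring, normalization, blank filter, probe averaging, probe neighbours, array weights and prior, or left out 1 mouse.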

Additional observations from a re-analysis of the deposited data

Results flagged for a closer look

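Of 69 sets of values (68 members and the kinesin difference), 5 held 1 mouse far from the others, by a gap that took up more of the whole range than Dixon's 95% limit; chance alone gives about 1 in 20. Kif4 had -0.14 in mouse 1, against a mean of -0.88, and Nek6 had -0.12 in mouse 1, against a mean of -0.40. Anapc5 had -1.03 in mouse 4, against a mean of -0.49, and Mad2l2 had 0.76 in mouse 4, against 0.18. Kif1b had -0.46 in mouse 3, against a mean of 0.03.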

How the results depend on the processing

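Of the 31 members past the threshold, 23 kept their call in each of the alternatives that could be run, 8 lost it in at least 1 and 0 changed side. The 8 were Anapc1, Anapc16, Cenpc1, Hmmr, Kif12, Kif9, Kifc2 and Ncaph2. Without 1 mouse, the number of members below 0 was 22 to 26, against 27, and the number above 0 was 2 to 4, against 4; it was 2 without mouse 3 and 2 without mouse 5, the calls of Anapc16 and Kifc2 being lost in both. Over all genes, 1477 were below 0 with all mice, 951 without mouse 3 and 929 without mouse 5, and 1199, 737 and 672 above 0. The mitotic minus transport difference was -0.73 to -0.94 without 1 mouse and -0.96 with genes that have values on all arrays. Leaving out probes 6, 12, 18 or 24 identifiers from strong ones gave 22 of 62 tested members below 0, against 14.5% of all genes. The count fell since Aurka, Cenpc1, Plk4 and Smc2 could then not be tested and Ncaph2 was lost. Plk4 and Smc2 were left out for neighbours at a distance of 12, where Pearson's r was -0.011. Cenps gained a call in 4 settings, Kif24 in 2 and Anapc15 in 1. Averaging probes before the blank filter, an alternative chosen after seeing the data, gave 27 and 4. Counting Cenpe as a kinesin was not run, as no probe here names it alone. No paired analysis was possible because the series has 1 group. Cdc26, the pathway gene of mitotic exit above 0 (0.15, chosen after its value was seen), had 0.02 with 1 probe a gene and lost its call without any 1 mouse (adjusted p from 0.0596 to 0.103). Without signal over background, faint spots could be recognised only by blanks.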
